A study of Mus musculus with 28 samples.

Results

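The question examined here was for which genes the loss of KEAP1 had a different effect in a tumor than in a culture dish. For each row of the expression table, the effect of KEAP1 loss (KEAP1-KO minus WT, on a log2 scale) was taken once in transplanted tumors and once in cultured cells, and the cell effect was subtracted from the tumor effect. This difference of differences, called tumors minus cells below, used 16 of the 28 libraries of the study. It was computed over all 18509 rows with a gene symbol, of which 15323 passed the filter on low counts. The rule chose rows by their symbol and samples by their labels, not by a measured value.

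The 4 groups were WT tumors, KEAP1-KO tumors, WT cells and KEAP1-KO cells, with 4 libraries each. 3LL is a mouse Lewis lung carcinoma line, of male origin by its label. KEAP1-KO cells were grown from a single colony after CRISPR-Cas9 editing and carried a homozygous frameshift insertion in Keap1 exon 2. Which colony the cultures and the tumors came from is not given in the sources used here, so KEAP1 loss and other features of a clone cannot be told apart. Cells were grown in RPMI medium. Tumors of Experiment A grew for 10 days from cells placed under the skin of 6-week-old male albino C57BL/6 mice, WT cells on the left flank and KEAP1-KO cells on the right flank of the same mice, so genotype and flank go together within Experiment A. Host cells of these immunocompetent mice were part of each tumor. Experiment B, used below for 1 comparison and as a second source of KEAP1-KO tumors, had KEAP1-KO tumors on the left and tumors of cells lacking both KEAP1 and NRF2 (DKO) on the right, 4 of each. The labels do not state that the 4 libraries of a cell group came from separate cultures, so the p-values measure the spread between these libraries, which may be technical.

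KEAP1 is the adaptor that hands the transcription factor NRF2 to a ubiquitin ligase. Without KEAP1, NRF2 accumulates and turns on genes of glutathione synthesis and conjugation, quinone reduction, NADPH supply and drug efflux, many of them through the antioxidant response element (ARE). In a culture dish this response is read from the cancer cells alone. A tumor adds fibroblasts, vessels and leukocytes and the signals between them, among which interferons induce genes of antiviral defence and antigen presentation in leukocytes and cancer cells alike.

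Values are log2(normalized count + 4), so a row with no reads stands at exactly 2, which is called the floor below. A difference that starts from the floor depends on this constant and is not a fold change. The 16 libraries held 4487181 to 7524322 reads, with medians of 5115089 in tumors and 6308537 in cells. Of 10 liver genes searched for, because the labels' extraction text names liver, only Alb was listed, at 2 to 3.43. A symbol can stand for a whole gene or for a single transcript of it, such as a retained-intron transcript, and this is given for the genes described in full. A single value in parentheses after a gene is tumors minus cells unless another quantity is named. A row was called when its limma p, adjusted by the method of Benjamini and Hochberg over all rows, was under 0.05.

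Keap1 itself (gene row) stood at 8.78, 8.98, 8.84 and 8.93 in the WT tumors and at 7.55, 7.13, 7.86 and 7.27 in the KEAP1-KO tumors. In cells the values were 9.47, 9.35, 9.56 and 9.42 for WT and 7.65, 7.54, 7.65 and 7.52 for KEAP1-KO. KEAP1-KO was below WT in both settings without overlap, and the 2 effects, -1.43 in tumors and -1.86 in cells, were not called different, with a difference of 0.43 ± 0.17 (SE, limma adjusted p = 0.21). Nfe2l2, which encodes NRF2 (processed transcript), was also not called different, at 0.31 ± 0.23 (SE, limma adjusted p = 0.58). With the KEAP1-KO tumors of Experiment B in place of those of Experiment A, the difference of Keap1, 0.43 there too, was called (limma adjusted p = 0.023).

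The KEAP1 effect differed between tumors and cells for 1337 rows with a symbol, 8.73% of those tested (over all 33851 rows, with or without symbol, 4.92%). Most of these differences were negative. In 1029 rows (6.72% of those tested) the effect was lower in tumors, and in 308 (2.01%) it was higher. The median over all rows with a symbol was -0.07. Within the tumors alone, KEAP1-KO was called higher than WT in 7.67% and lower in 14.3% of rows, and within the cells in 9.78% and 8.56%.

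With the KEAP1-KO tumors of Experiment B, which grew on the left flank as the WT tumors of Experiment A did, in place of those of Experiment A, 1175 rows were called (313 higher, 862 lower). Calls then numbered 13 for NRF2 targets in place of 16, 38 for interferon-stimulated genes in place of 41 and 15 for pan-leukocyte markers in place of 17. Counts moved by over 1.5 times in smaller lists, as given with each list below: fewer rows were called in the checkpoint, glycolysis, pentose phosphate and drug metabolism lists, and more in the cholesterol and the proteasome and heat shock lists. These tumors came from other mice than the WT tumors.

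The called rows fell into 6 patterns according to which of the 2 effects was called by itself, so that "tumors only" and "cells only" mean that the other effect was not called. The most frequent was a decrease in tumors only, with 647 rows, and 95 rows increased in tumors only. In cells only, 200 rows rose and 103 fell. Opposite directions were called in 97 rows that fell in tumors and rose in cells and in 28 rows that rose in tumors and fell in cells. The same direction was called in both settings for 62 rows with the larger effect in tumors and 67 with the larger effect in cells. For the remaining 38 rows neither effect was called by itself.

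Many of the decreases in tumors concerned genes with no measurable level in the dish. Of the called rows, 461 (34.5%) stayed under 5 normalized counts in each of the 8 cell libraries, against 7.39% of all rows tested. Of these 461 rows, 458 were called in tumors only and 3 (Ankrd66, Selenop and Slfn2) in opposite directions. Of the 1029 lower rows, detected in cells or not, 111 reached 5 normalized counts in WT tumors only and 9 in KEAP1-KO cells only, and of the 308 higher rows 9 did so in KEAP1-KO tumors only and 4 in WT cells only. Rows that pass the filter through 1 group have their direction set by it, and this is said below for the lists that hold many of them. Of the genes described below, Ifit1, Cxcl9, Ly6c2, Prf1 and Tnf passed through WT tumors only and Gsta3 through KEAP1-KO cells only. Rows that were detected in cells, and those with opposite directions in particular, carry the comparison between settings.

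**Figure D1:**
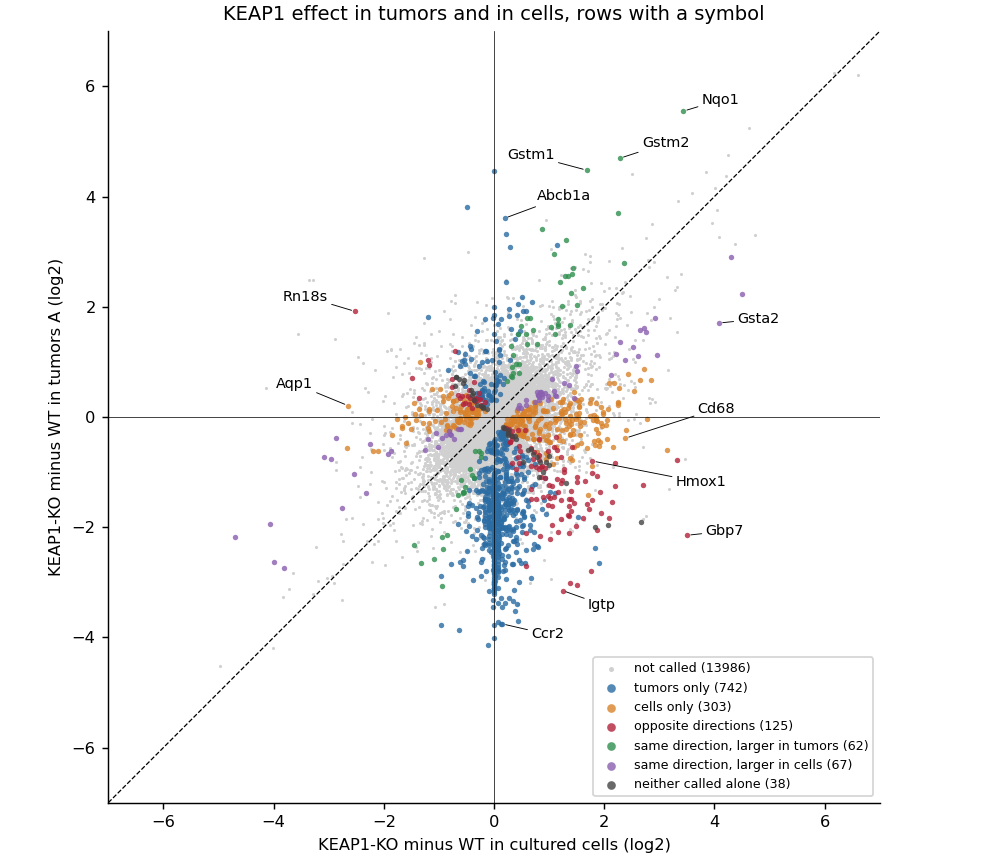
The KEAP1 effect (KEAP1-KO minus WT, log2) in cultured cells on the x axis and in tumors of Experiment A on the y axis, one point per row with a symbol, with called rows colored by pattern. The dashed line marks equal effects. The column of points under 0 near the y axis holds the tumors-only decreases, the lower right quadrant holds the 97 rows that fell in tumors and rose in cells, and Nqo1, Gstm1 and Gstm2 stand above the dashed line.

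In the NRF2 target list, 35 of 40 genes were kept, and the direction of the KEAP1 effect was mostly shared, while a difference between the settings was called for 16. Tumors minus cells was higher for 11 and lower for 5 of the 35, and 19 were not called. The list median was 0.40, from a median effect of 1.71 in tumors and 1.39 in cells. KEAP1-KO was called higher than WT in 26 of the 35 in tumors and in 27 in cells.

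Nqo1, the NADPH-dependent quinone reductase that serves as the standard NRF2 readout (gene row), stood at 6.84, 6.92, 6.6 and 7.06 in WT tumors and at 12.25, 12.43, 12.44 and 12.51 in KEAP1-KO tumors. The cultured cells read 9.15, 8.90, 9.06 and 8.95 for WT and 12.31, 12.54, 12.44 and 12.53 for KEAP1-KO. The KEAP1-KO libraries of both settings lay at the same height, whereas every WT tumor was below every WT cell library. The effect was 5.55 ± 0.09 in tumors and 3.44 ± 0.09 in cells, a difference of 2.11 ± 0.13 (SE, limma adjusted p = 4.7e-07).

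Gstm1, a glutathione S-transferase that conjugates electrophiles (processed transcript), had the same arrangement. WT tumors were at 5.96, 6.26, 6.11 and 6.13 and KEAP1-KO tumors at 10.45, 10.57, 10.77 and 10.58. WT cells were at 9.36, 9.29, 9.41 and 9.37 and KEAP1-KO cells at 11, 11.05, 11.07 and 11.06. The 4 groups did not overlap, WT tumors were the lowest, and tumors minus cells was 2.80 ± 0.10 (SE, limma adjusted p = 5.8e-10).

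For Gstm2, its neighbour in the same enzyme class (retained-intron transcript), values of 4.33, 4.80, 4.22 and 4.61 in WT tumors and 9.04, 9.31, 9.23 and 9.18 in KEAP1-KO tumors compared with 7.33, 7.48, 7.46 and 7.47 in WT cells and 9.61, 9.76, 9.77 and 9.77 in KEAP1-KO cells. Again the WT tumors stood apart below the other 3 groups. The difference was 2.41 ± 0.15 (SE, limma adjusted p = 5.9e-07). The Gstm genes are near-identical in sequence, so reads may be shared between them.

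The other NRF2 targets with a positive difference were Akr1b8, an aldo-keto reductase (1.27), the efflux pump Abcc4 (1.27), the aldehyde oxidase Aox1 (0.85), Gclc, the catalytic subunit of the first step of glutathione synthesis (0.77), Esd (0.72), the thioredoxin reductase Txnrd1 (0.62), the ferritin heavy chain Fth1 (0.51) and the biliverdin reductase Blvrb (0.42). Of these, Esd, Txnrd1, Aox1 and Blvrb are retained-intron transcripts, Fth1 a protein-coding transcript, and the others processed transcripts. Over the 11 genes with a positive difference, WT tumors were below WT cells for 10, by a median of -1.39 (range -3.25 to 0.27). KEAP1-KO tumors were below KEAP1-KO cells for 9, by a median of -0.45 (range -1.04 to 1.53). The order of the 2 medians follows from the choice of genes by a positive difference and is no separate result. In bulk samples, fewer cells of a type and less RNA per cell cannot be told apart, and the summed leukocyte markers given below differed between WT and KEAP1-KO tumors. Their part in these differences was not tested.

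5 NRF2 targets had a smaller KEAP1 effect in tumors than in cells. Hmox1, heme oxygenase 1, which also responds to heme and inflammatory signals (retained-intron transcript), changed in opposite directions. It stood at 8.04, 7.94, 7.94 and 7.83 in WT cells and rose to 9.59, 9.81, 9.70 and 9.80 in KEAP1-KO cells. In tumors it stood at 10.62, 9.95, 10.52 and 11.12 for WT and 10.02, 9.85, 9.30 and 9.84 for KEAP1-KO, with 1 WT value inside the KEAP1-KO range. The effect was -0.80 ± 0.19 in tumors and 1.79 ± 0.19 in cells, and the difference was -2.59 ± 0.27 (SE, limma adjusted p = 2.8e-05).

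Gsta2, an alpha-class glutathione S-transferase (protein-coding transcript), stood at the floor of 2 in all 4 libraries for WT tumors and likewise at the floor of 2 in all 4 libraries for WT cells. It reached 6.20, 5.49, 6.26 and 6.39 in KEAP1-KO cells but only 4.02, 3.45, 3.29 and 4.06 in KEAP1-KO tumors, a difference of -2.38 ± 0.33 (SE, limma adjusted p = 0.00035). Gsta3 (gene row) rose in cells only, from a mean of 2.09 to 3.88, while both tumor groups averaged 2.13 and 2.08. It passed the filter through KEAP1-KO cells only, which set its direction. Osgin1, an oxidative stress-induced growth inhibitor (processed transcript), rose by 2.76 in cells and by 1.54 in tumors. Prdx6, a peroxiredoxin (transcript of the nonsense-mediated decay class), rose by 1.49 and 0.92.

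Of the 13 rows kept for pentose phosphate and NADPH genes, 2 were higher for tumors minus cells (list median 0.20). G6pdx, glucose-6-phosphate dehydrogenase, the entry enzyme of the pentose phosphate pathway (protein-coding transcript), stood at 10, 10.11, 10.09 and 10.23 in WT tumors and 11.30, 11.30, 11.56 and 11.46 in KEAP1-KO tumors. The cells, at 11.54, 11.41, 11.52 and 11.45 for WT and 11.71, 11.83, 11.76 and 11.87 for KEAP1-KO, showed a smaller step between the genotypes, and the difference was 0.98 ± 0.09 (SE, limma adjusted p = 1.4e-05). Pgd, the third enzyme of the pathway (retained-intron transcript), had a difference of 0.28 ± 0.07 (SE, limma adjusted p = 0.041). The call of Pgd held in 4 of the 16 fits without 1 library and was lost once the KEAP1-KO tumors came from Experiment B, and the other 11 rows were not called.

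The most marked increase in a drug efflux gene was that of Abcb1a, P-glycoprotein (retained-intron transcript). It stood at the floor of 2 in all 4 libraries of WT tumors and at 5.98, 5.68, 5.45 and 5.32 in KEAP1-KO tumors. In cells the values were 2, 2, 2 and 2.62 for WT and 3.39, 2, 2 and 2 for KEAP1-KO, so that 6 of the 8 cell libraries had no read. The difference was 3.41 ± 0.43 (SE, limma adjusted p = 0.00014). Without the KEAP1-KO tumors the row would not have passed the filter on low counts, so they set its direction. Of the 25 kept rows of the cytochrome P450, UGT and ABC transporter list, 2 were higher (Abcb1a and Abcc4) and 2 lower (Abcc3, -1.44, and Cyp26b1, -1.37). The calls of Abcc4 and Abcc3 were lost when KEAP1-KO tumors of Experiment B were used.

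**Figure D2:**
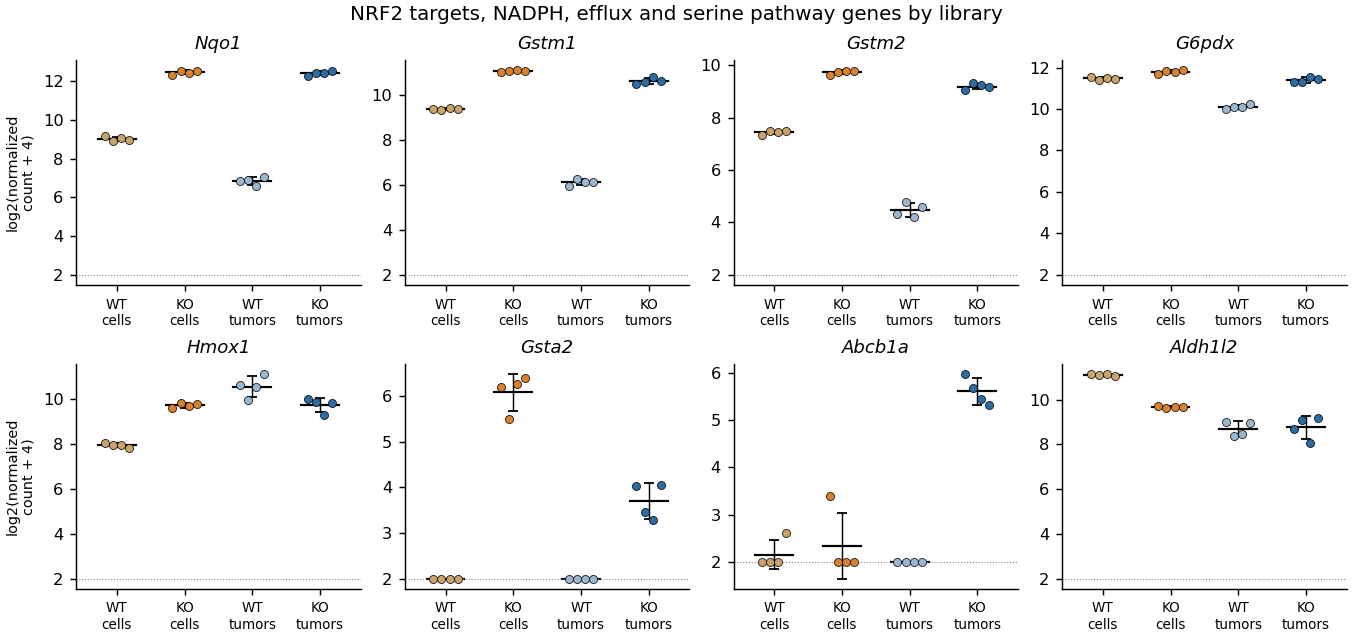
Level of 8 genes in each library on the y axis, log2(normalized count + 4), by group on the x axis, with bars for the mean and its SD (n = 4) and a dotted line at the floor of 2. For Nqo1, Gstm1, Gstm2 and G6pdx the WT tumors are the lowest group, Hmox1 falls from WT to KEAP1-KO in tumors and rises in cells, and Aldh1l2 falls in cells only.

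The ARE is a short motif bound by NRF2 with small MAF proteins, searched here as TGACNNNGC on either strand in RefSeq promoters of GRCm38.p6 (250 bases before to 50 after each start). Of the 11 NRF2 targets with a positive difference, 10 had a promoter in the table and 2, Txnrd1 and Abcc4, held the motif. Among genes of the pattern same direction, larger in tumors, with a positive difference, 20% of 55 promoters held it, and among tumors-only increases 23.4% of 77, beside 12.4% of all promoters in the table and 14.2% of those of all symbols tested. The motif was about as frequent in promoters of some patterns with a negative difference. The share was 20% of 40 for the same direction with the larger effect in cells, 19.8% of 86 for opposite directions and 18.7% of 193 for cells only. It was lower for tumors-only decreases (15.5% of 592) and for the same direction, larger in tumors, with a negative difference (4.35% of 23). The other patterns with a positive difference held the motif in 8.7% to 13.7% of promoters, and the whole NRF2 target list in 26.2% of 42. Over all called rows it was held by 17.1% of 257 promoters for higher and 16.6% of 954 for lower differences. The bases before the start are shown for 3 genes described here that had a larger effect in tumors and held the motif (where a gene had several promoters, one with the motif), G6pdx at chrX:74428881-74429130 (minus strand), Txnrd1 at chr10:82858956-82859205 (plus strand) and Abcc4 at chr14:118706220-118706469 (minus strand), 5′ to 3′, with the motif in capitals.
G6pdx: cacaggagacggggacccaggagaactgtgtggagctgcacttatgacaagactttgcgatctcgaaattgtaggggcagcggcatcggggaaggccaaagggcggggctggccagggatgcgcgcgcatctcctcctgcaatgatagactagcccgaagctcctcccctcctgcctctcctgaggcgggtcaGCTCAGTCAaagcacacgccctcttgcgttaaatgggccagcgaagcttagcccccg
Txnrd1: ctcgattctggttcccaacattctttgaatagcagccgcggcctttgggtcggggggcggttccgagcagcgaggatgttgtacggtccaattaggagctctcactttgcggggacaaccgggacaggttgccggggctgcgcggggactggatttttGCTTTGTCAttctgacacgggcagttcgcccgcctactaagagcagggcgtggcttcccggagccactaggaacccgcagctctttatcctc
Abcc4: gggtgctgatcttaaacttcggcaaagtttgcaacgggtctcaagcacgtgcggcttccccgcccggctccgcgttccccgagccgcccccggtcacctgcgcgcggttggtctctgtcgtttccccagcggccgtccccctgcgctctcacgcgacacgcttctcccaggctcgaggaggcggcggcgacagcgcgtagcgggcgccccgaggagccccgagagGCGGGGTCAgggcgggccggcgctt

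Interferon-response genes moved the other way and held the lowest differences among the named genes. Among 51 interferon-stimulated genes, all of them kept, tumors minus cells was lower for 41 and higher for none (limma, none higher at an unadjusted p under 0.05 either), with a median of -2.36, beside -0.07 over all rows. In tumors 43 of them fell with KEAP1 loss (median -2.13). In cells none fell (1 at an unadjusted p under 0.05) and 7 rose (median 0.14). Of the 41 called, 33 were tumors-only decreases, and 20 were not detected in cells. Of the 41, 8 passed the filter on low counts through WT tumors only and had to come out lower, and 22 were called with a mean of at least 25 normalized counts required.

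The median level over the 51 genes was 6.54, 6.59, 5.69 and 5.34 in the WT tumors and 3.81, 3.6, 3.55 and 3.67 in the KEAP1-KO tumors. In the cells it was 2.36, 2.34, 2.62 and 2.85 for WT and 3.11, 2.91, 2.77 and 3.08 for KEAP1-KO. WT tumors were thus above all other libraries, WT tumors 1 and 2 more than WT tumors 3 and 4, and the genotypes were ordered oppositely in tumors and cells except for overlap between WT cell 4 and KEAP1-KO cell 3.

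The interferon-induced GTPases, which attack vacuoles of intracellular pathogens, were lower for 14 of 15 kept (median -2.79), and 3 of them, Gbp7, Igtp and Gbp3, were called in opposite directions. Of the 14, 5 passed the filter on low counts through WT tumors only, and these drop out of the test when any 1 WT tumor is left out. The list count was 8 without WT tumor 1 or 2, 9 without WT tumor 3 or 4, and 7 with a mean of at least 25 normalized counts required. Gbp7 (gene row) had the lowest difference of all genes named by the rule. It was nearly silent in WT cells, at 2.36, 3.06, 3.53 and 2.62, and reached 6.50, 6.41, 6.36 and 6.32 in KEAP1-KO cells. In tumors it was 8.46, 8.79, 7.89 and 7.48 for WT and 5.92, 5.98, 6.18 and 5.96 for KEAP1-KO. Groups did not overlap in either setting, the effects were -2.15 ± 0.26 in tumors and 3.51 ± 0.26 in cells, and the difference was -5.65 ± 0.37 (SE, limma adjusted p = 6.4e-07).

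Igtp, an immunity-related GTPase (gene row), rose from 3.28, 2.34, 2.62 and 2.62 in WT cells to 4.37, 3.94, 3.94 and 3.59 in KEAP1-KO cells. WT tumors held 6.93, 7.04, 6.37 and 5.78 and KEAP1-KO tumors 3.08, 3.45, 3.55 and 3.43. KEAP1-KO lay wholly above WT in cells and wholly below it in tumors, and the difference was -4.39 ± 0.40 (SE, limma adjusted p = 1.2e-05).

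Gbp3 (gene row) gave 2, 2.34, 2 and 2 in WT cells, 3.92, 3.34, 3.12 and 3.48 in KEAP1-KO cells, 6.99, 7.05, 5.90 and 5.91 in WT tumors and 3.81, 2.90, 3.43 and 3.67 in KEAP1-KO tumors. KEAP1-KO tumors and KEAP1-KO cells met at a like level between the WT extremes. The difference was -4.39 ± 0.43 (SE, limma adjusted p = 1.8e-05).

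Among the antiviral genes, 7 of 41 were called in opposite directions: Cmpk2 (-3.04 in tumors, 1.51 in cells), Trim30a, Ifih1 (-2.11, 1.37), Parp14 (-2.09, 1.16), Slfn8 (-1.49, 1.37), Slfn5 (-1.62, 1.05) and Samd9l (-1.13, 1.14). Cmpk2 is a mitochondrial nucleotide kinase and Ifih1 (MDA5) a sensor of viral double-stranded RNA, and the rows of Cmpk2, Ifih1 and Parp14 are retained-intron transcripts. Trim30a (gene row) stood at 3.95, 3.39, 3.99 and 3.05 in WT cells and 5.73, 5.47, 5.48 and 5.47 in KEAP1-KO cells. WT tumors had 7.94, 7.90, 7.65 and 7.32 and KEAP1-KO tumors 5.81, 5.92, 6.20 and 5.89. Its difference was -3.69 ± 0.28 (SE, limma adjusted p = 2.9e-06), with no overlap between genotypes in either setting.

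Ifit1, which binds viral RNA lacking a cap methyl group (gene row), changed in tumors only. Its row passed the filter through WT tumors, so its direction was set by the filter. It stood at 7.14, 7.6, 6.07 and 5.93 in WT tumors and 2.64, 2.66, 2.31 and 2.57 in KEAP1-KO tumors. All cell libraries lay at or near the floor, at 2.36, 2.34, 2 and 2 for WT and 2, 2.29, 2 and 2 for KEAP1-KO. The difference was -4.03 ± 0.44 (SE, limma adjusted p = 4.6e-05). Oasl2 (-3.89), Ifit3 (-3.81), Oas1a (-3.50) and Irf7, the factor that amplifies interferon production (-3.45, retained-intron transcript), had the same pattern. Ifit2, Herc6 and Bst2 were well above the floor in cells, at means of 8.07, 7.38 and 7.86 in WT cells. Their cell effects were 0.25, -0.13 and 0.22, against -1.57, -1.38 and -2.13 in tumors.

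Factors activated by interferons bind the interferon-stimulated response element (ISRE), searched as GAAA, any 2 bases and GAAA again on either strand. It was found in 90.9% of 11 promoters of the GTPase list and in 53.3% of 45 promoters of the interferon-stimulated list. Rows with opposite directions and a negative difference held it in 17.4% of 86 promoters and tumors-only decreases in 12% of 592, whereas the share was 4.66% of 193 for rows that rose in cells only. All promoters held it in 3.44% and those of all symbols tested in 3.31%. The gamma-activated site, TTCNNNGAA on either strand, which overlapped an ISRE in 24 of 1131 promoters with an ISRE, was in 11.6% of the opposite-direction promoters with a negative difference, beside 8.3% of all and 7.12% of those of all symbols tested. In the GTPase list it was in 54.5% of 11 promoters and in the interferon-stimulated list in 13.3% of 45. A match is a description of the sequence and not evidence of binding.

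The bases before the start are printed for those 5 genes with an ISRE in their promoter among the 12 lowest differences that were called in the whole fit and in all 16 fits without 1 library, with the motif in capitals: Gbp7 at chr3:142530086-142530335 (plus strand), Igtp at chr11:58199306-58199555 (plus strand), Gbp3 at chr3:142559794-142560043 (plus strand), Gbp2 (tumors minus cells -4.15) at chr3:142620413-142620662 (plus strand) and Cxcl10 at chr5:92348890-92349139 (minus strand). Ifit1 is not among them, as it was called in 12 of the 16 fits and was not tested in those without 1 WT tumor. The motif began 53, 34, 59 and 213 bases before the start in Gbp7, Igtp, Gbp2 and Cxcl10. In Gbp3 overlapping matches began 45 and 39 bases before it.
Gbp7: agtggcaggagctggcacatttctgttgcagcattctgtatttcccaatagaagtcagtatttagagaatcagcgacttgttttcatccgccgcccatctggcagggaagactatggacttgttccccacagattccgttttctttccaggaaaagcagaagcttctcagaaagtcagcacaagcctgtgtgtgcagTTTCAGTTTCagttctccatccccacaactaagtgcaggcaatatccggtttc
Igtp: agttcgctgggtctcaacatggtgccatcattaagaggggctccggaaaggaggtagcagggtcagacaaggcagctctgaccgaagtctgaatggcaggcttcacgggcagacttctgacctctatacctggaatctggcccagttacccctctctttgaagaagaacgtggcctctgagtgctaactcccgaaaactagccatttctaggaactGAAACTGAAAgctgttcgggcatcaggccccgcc
Gbp3: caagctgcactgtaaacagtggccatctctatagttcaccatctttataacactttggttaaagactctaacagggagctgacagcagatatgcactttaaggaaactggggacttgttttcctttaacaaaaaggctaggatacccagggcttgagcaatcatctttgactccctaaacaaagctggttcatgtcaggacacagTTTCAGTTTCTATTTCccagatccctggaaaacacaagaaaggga
Gbp2: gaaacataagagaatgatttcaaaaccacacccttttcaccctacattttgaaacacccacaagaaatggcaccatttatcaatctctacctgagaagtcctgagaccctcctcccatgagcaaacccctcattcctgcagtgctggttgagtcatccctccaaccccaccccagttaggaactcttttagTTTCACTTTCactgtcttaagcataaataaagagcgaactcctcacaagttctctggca
Cxcl10: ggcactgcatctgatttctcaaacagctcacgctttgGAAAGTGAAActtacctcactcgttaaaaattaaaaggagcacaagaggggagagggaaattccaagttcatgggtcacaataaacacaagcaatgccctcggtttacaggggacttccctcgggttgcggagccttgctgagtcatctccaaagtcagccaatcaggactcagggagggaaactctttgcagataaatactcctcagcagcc

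Antigen presentation genes moved in the same direction as the interferon genes. In the MHC class I list, which also holds peptide loading genes, 11 of 21 were lower and none higher (median -1.18). The genotypes were ordered oppositely in 4 of the 11, H2-T23, Tap2, Tapbpl and Nlrc5. H2-T23, the nonclassical molecule Qa-1 that is a ligand of NK cell receptors (retained-intron transcript), stood at 5.96, 5.80, 5.43 and 5.88 in WT cells and 6.32, 6.35, 6.69 and 6.75 in KEAP1-KO cells. Tumors held 8.28, 8.15, 8.34 and 7.82 for WT and 6.61, 6.74, 6.81 and 6.52 for KEAP1-KO. KEAP1-KO was above WT in every cell library and below WT in every tumor, a difference of -2.24 ± 0.21 (SE, limma adjusted p = 1.3e-05). Tap2, a subunit of the peptide transporter (retained-intron transcript), fell by 0.62 in tumors and rose by 0.99 in cells, and Nlrc5, the transactivator of class I genes (processed transcript), fell by 0.45 and rose by 0.30. B2m, the light chain of class I molecules (gene row), fell in both settings, by 1.11 in tumors and by 0.37 in cells.

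In the MHC class II list 8 of 9 were lower (median -2.89). Cd74, the invariant chain (-3.55), H2-Aa (-3.11) and H2-Ab1 (-3.08), all retained-intron transcripts, fell in tumors only, and 6 of the 9 rows were not detected in cells. H2-DMa and H2-DMb1, the peptide editors of class II, were measurable in cells and were called in opposite directions. H2-DMa (processed transcript) rose from a mean of 3.42 to 4.82 in cells and fell from 5.47 to 3.97 in tumors, a difference of -2.89 ± 0.39 (SE, limma adjusted p = 0.00025). H2-DMb1 (retained-intron transcript) differed by -2.35.

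Chemokines were lower for 14 of 23 kept, none higher (median -1.49). The count was 9 with a constant of 1 in place of 4 and 8 with a mean of at least 25 normalized counts required, and 2 of the 14 passed the filter through WT tumors only. Cxcl10, an interferon-induced attractant of T and NK cells (retained-intron transcript), stood at 6.78, 7.15, 5.52 and 5.40 in WT tumors and 2.64, 2.37, 2.79 and 2.98 in KEAP1-KO tumors. Cells were low in both genotypes, at 2.65, 3.06, 3.39 and 2.62 for WT and 3.26, 3.86, 2.77 and 3.36 for KEAP1-KO, and overlapped. The difference was -3.90 ± 0.53 (SE, limma adjusted p = 0.00026). The monocyte attractants Ccl7 and Ccl2 were expressed by the cultured cells themselves. Ccl7 (gene row) rose from a mean of 7.97 to 8.55 in cells and fell from 10.80 to 8.10 in tumors, a difference of -3.28 ± 0.23 (SE, limma adjusted p = 9.8e-07). Ccl2 (retained-intron transcript) had means of 4.71 and 5.12 in cells and fell from 8.02 to 6.04 in tumors, a difference of -2.39 ± 0.38 (SE, limma adjusted p = 0.0011). Cxcl9 (-3.04), Cxcl2 (-2.81) and Cxcl16 (-2.12) fell in tumors only.

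The checkpoint ligand Cd274, PD-L1 (gene row), was called in opposite directions. WT cells held 3.83, 4.26, 4.42 and 4.79 and KEAP1-KO cells 5.40, 5.58, 5.25 and 5.73. WT tumors held 7.01, 7.08, 6.63 and 7.36 and KEAP1-KO tumors 5.73, 5.58, 5.57 and 5.77. Neither pair overlapped, and the difference was -2.52 ± 0.27 (SE, limma adjusted p = 4.2e-05). In the same list Lgals9 (galectin 9, retained-intron transcript) was also called in opposite directions (-1.75), and Cd80 (-2.38), Cd86 (-2.06), Havcr2 (-3.03) and Sirpa (-1.74) fell in tumors only. The other 10 of 16 were not called. The calls of Cd86, Havcr2 and Sirpa were lost, and those of Cd274, Lgals9 and Cd80 held, when KEAP1-KO tumors of Experiment B were used. Among complement genes 8 of 14 were lower, with factor B (Cfb, -3.59) and the anaphylatoxin receptors C5ar1 (-3.06) and C3ar1 (-2.68), of which both receptors rose in cells and fell in tumors.

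**Figure D3:**
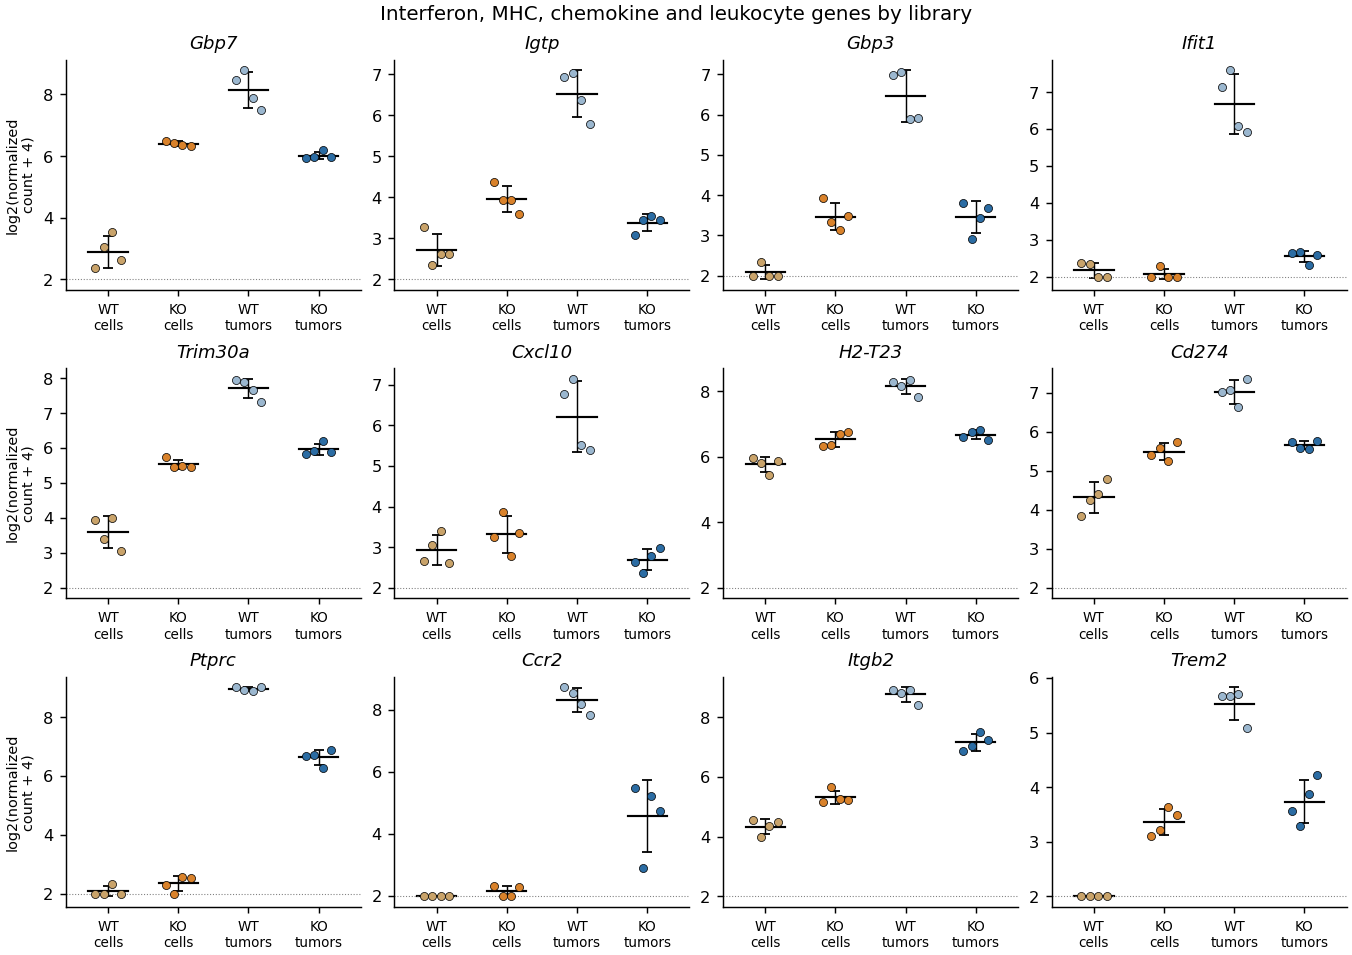
Level of 12 genes in each library on the y axis, log2(normalized count + 4), by group on the x axis, with the mean and SD (n = 4) and a dotted line at the floor of 2. Gbp7, Igtp, Gbp3, Trim30a, H2-T23, Cd274, Itgb2 and Trem2 rise with KEAP1 loss in cells and fall in tumors, while Ifit1, Cxcl10, Ptprc and Ccr2 are near the floor in cells.

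Leukocyte genes moved together with the interferon genes. Of 20 pan-leukocyte markers 17 were lower and none higher (median -2.23), and 13 of the 17 were not detected in cells. The summed level of the 20 markers, in normalized counts, was 4678 to 6072 in WT tumors, 1133 to 1489 in KEAP1-KO tumors, 205 to 250 in WT cells and 114 to 180 in KEAP1-KO cells, where 4 of the 20 were at 0 in every library. These markers fell in the same tumors as the interferon, MHC and chemokine genes, and their part in those results was not tested. In cells, the summed pan-leukocyte markers were lower in KEAP1-KO than in WT, while the summed macrophage, neutrophil, B cell and dendritic cell markers were higher, by the values given here and below, and their part in the rises in KEAP1-KO cells was not tested.

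Ptprc, which encodes CD45 (retained-intron transcript), stood at 9.01, 8.92, 8.89 and 9.01 in WT tumors and 6.69, 6.71, 6.27 and 6.87 in KEAP1-KO tumors. In cells it was 2, 2, 2.35 and 2 for WT and 2.30, 2, 2.56 and 2.53 for KEAP1-KO, at or near the floor throughout. The difference was -2.58 ± 0.24 (SE, limma adjusted p = 1.2e-05). Itgb2, the beta chain of leukocyte integrins (protein-coding transcript), was measurable in cells, rising from a mean of 4.34 to 5.32, and fell in tumors from 8.77 to 7.16, a difference of -2.58 ± 0.24 (SE, limma adjusted p = 1.4e-05). Its partner Itgal (gene row) fell in both settings, by 3.07 in tumors and by 0.95 in cells.

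Of 30 macrophage and monocyte markers, 23 were lower and none higher (median -1.89). Summed levels were 12599 to 16273 in WT tumors and 4710 to 5823 in KEAP1-KO tumors, against 332 to 378 in WT cells and 400 to 419 in KEAP1-KO cells, where 13 and 10 of the 30 were at 0 in every library. Ccr2, the receptor that brings monocytes into tissue (gene row), read 8.73, 8.53, 8.20 and 7.83 in WT tumors and 5.46, 2.90, 5.20 and 4.72 in KEAP1-KO tumors. WT cells stood at the floor of 2 in all 4 libraries, and KEAP1-KO cells read 2.30, 2, 2 and 2.29. KEAP1-KO tumor 2 was the lowest of its group, all KEAP1-KO tumors were below all WT tumors, and the difference was -3.90 ± 0.58 (SE, limma adjusted p = 0.00061). Nos2 (-3.80), Ly6c2 (-3.31), Chil3 (-3.03) and Itgam (-2.85) fell likewise, whereas the complement component genes C1qa, C1qb and C1qc had smaller differences of -1.31, -1.60 and -1.31. Trem2, a lipid receptor of macrophages (retained-intron transcript), stood at the floor in WT cells, averaged 3.36 in KEAP1-KO cells, and fell in tumors from 5.53 to 3.73, a difference of -3.16 ± 0.33 (SE, limma adjusted p = 2.9e-05).

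Neutrophil markers, whose summed level was 956 to 3064 in WT tumors, 728 to 1068 in KEAP1-KO tumors, 35.6 to 59.6 in WT cells and 158 to 175 in KEAP1-KO cells, were lower for 7 of 14, with Mmp8 (-2.71) and Csf3r (-2.38) falling in tumors only, Cxcr2 in opposite directions (-2.42) and Clec4d rising in cells only (-1.97). For T and NK cell markers, 10 of 32 were kept, and 6 of them passed the filter through WT tumors only and so had to come out lower. Their summed level was low, at 149 to 231 in WT tumors, 28.9 to 46.4 in KEAP1-KO tumors and 7.51 to 15.8 over the 8 cell libraries. The 9 rows called lower, among them Gzmb (-2.78), Il2rb (-2.72) and Prf1 (-2.14), became 3 without any 1 of the WT tumors, 4 with a replicate block and 0 with a mean of at least 25 normalized counts required.

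B cell markers had a summed level of 48.4 to 158 in WT tumors, 165 to 192 in KEAP1-KO tumors, 29.1 to 34.7 in WT cells and 156 to 194 in KEAP1-KO cells, with KEAP1-KO above WT in both settings. The rise in this sum lay mainly in Pax5, a B lineage transcription factor, whose mean went from 4.51 to 6.87 in tumors and from 3.92 to 7.23 in cells, while the median tumor effect over the 6 rows was -0.33 (3 lower and 1 higher at an unadjusted p under 0.05). None of the 6 rows was called by limma (4 lower at an unadjusted p under 0.05). Without WT tumor 4 there were 4 lower calls (Pax5, Ebf1, Bank1 and Blnk), and 3 with all 28 libraries in the fit. Dendritic cell markers summed to 905 to 1376 in WT tumors, 547 to 612 in KEAP1-KO tumors, 562 to 650 in WT cells and 703 to 748 in KEAP1-KO cells, and 4 of their 8 rows were lower. Of the skeletal muscle, keratinocyte and red blood cell markers (6, 9 and 6 rows) none was called by limma, and at an unadjusted p under 0.05 only 1 muscle row was. Of 7 adipocyte rows 1 was called (Lpl, -2.31).

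Among cytokines and growth factors, 9 of 39 were lower and 1 higher. Il1b (-2.81, retained-intron transcript), Osm (-2.02), Il1rn (-1.89) and Tnf (-1.51) fell in tumors only. Fgf2 (gene row) and the EGF family ligand Hbegf (retained-intron transcript) rose in cells only, Hbegf from a mean of 7.21 to 8.70 with tumor means of 8 and 7.96. The vessel-destabilising factor Angpt2 (processed transcript) fell in cells only, a difference of 1.46 ± 0.30 (SE, limma adjusted p = 0.0089). For the cytokine gene Il7, for Slpi, a secreted protease inhibitor, and for Serpinb9e, a serine protease inhibitor, which KEAP1 loss raised in both settings, tumors minus cells was not called by limma (1 of the 3 at an unadjusted p under 0.05): 0.16 (95% interval -0.53 to 0.85), 0.47 (95% interval -0.47 to 1.41) and 1.90 (95% interval 0.65 to 3.14). Serpinb9e was called in 7 of the alternatives, among them the fits without KEAP1-KO tumor 3 (limma adjusted p = 0.0042) and with the KEAP1-KO tumors of Experiment B (limma adjusted p = 0.011).

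**Figure D4:**
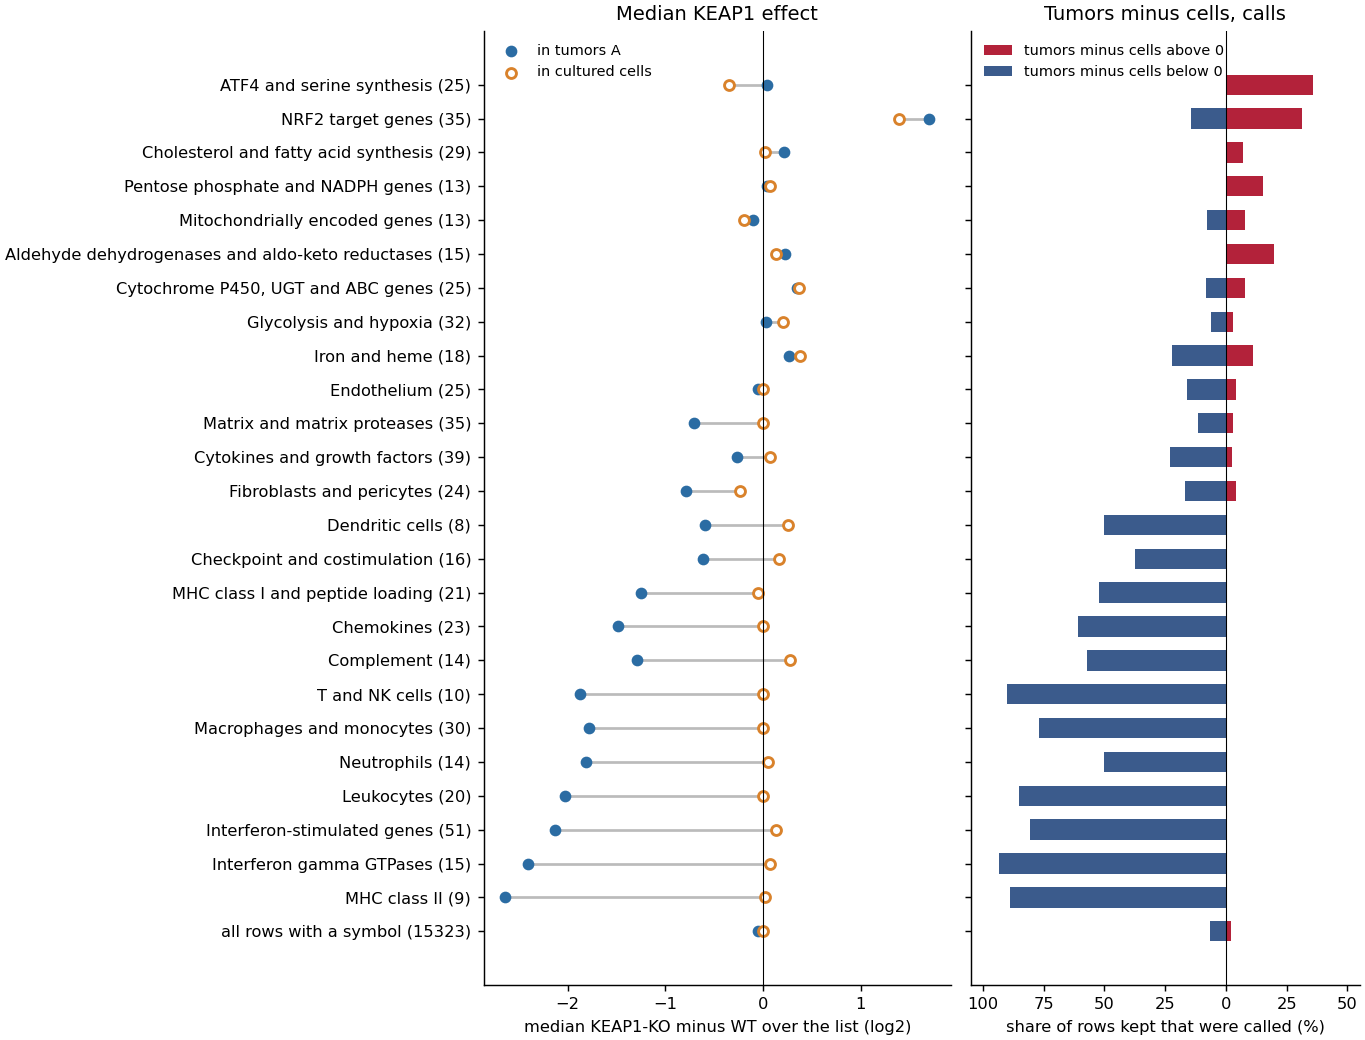
Left, the median KEAP1 effect (log2, x axis) over each gene list in tumors (filled) and in cells (open), with the number of rows kept in parentheses. Right, the share of those rows whose effect differed between the settings, for the lists with at least 2 such rows and for all rows with a symbol. Interferon, GTPase, MHC class II and leukocyte lists are near 0 in cells and below -2 in tumors, and the NRF2 list lies above 1 in both settings.

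For a separate set of genes the KEAP1 effect was called in cells and not in tumors, which does not show that the tumor levels were equal. Where tumors lay far above cells, as for Cd68 and Cdh5 below, a like rise in counts is a small log2 step in tumors. Such calls do not show that the effect within the cancer cells depended on the setting. Of the 200 such rows with a negative difference, 74 had both effects above 0. Adamts1, a secreted metalloprotease (protein-coding transcript), had the largest such difference by the naming rule. It stood at the floor of 2 in all 4 libraries of WT cells and at 5.57, 5.04, 5.05 and 4.91 in KEAP1-KO cells. In tumors it was 4.87, 5.49, 6.13 and 5.46 for WT and 3.26, 6.03, 5.41 and 4.82 for KEAP1-KO, overlapping, with KEAP1-KO tumor 1 the lowest. The difference was -3.75 ± 0.62 (SE, limma adjusted p = 0.0015). St6gal1, a sialyltransferase (gene row), rose from the floor to a mean of 4.77 in cells with tumor means of 4.62 and 4.58, a difference of -2.81 ± 0.42 (SE, limma adjusted p = 0.0007).

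Cd68, a lysosomal glycoprotein used as a macrophage marker (processed transcript), belonged to the same set. WT cells read 3.58, 5, 4.49 and 4.73 and KEAP1-KO cells 6.74, 6.87, 6.91 and 6.82. WT tumors read 9.27, 9.27, 9.06 and 8.91 and KEAP1-KO tumors 8.90, 8.81, 8.44 and 8.82. The cell groups were far apart, and the KEAP1-KO tumors lay just below the WT tumors without overlap. The tumor effect of -0.38 ± 0.22 was not called, the cell effect was 2.38 ± 0.22, and the difference was -2.77 ± 0.31 (SE, limma adjusted p = 5.5e-05). The iron transporter Slc11a1 of phagocyte lysosomes (retained-intron transcript) rose by 2.26 in cells, with a tumor effect of 0.26.

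Endothelial markers showed no KEAP1 effect called by limma in tumors (0 of 25 rows, 1 at an unadjusted p under 0.05, with summed levels of 2348 to 2729 in WT and 2026 to 2609 in KEAP1-KO tumors), but 5 of the 25 were called for tumors minus cells. Cdh5, VE-cadherin (protein-coding transcript), stood at 2, 2.62, 2 and 2.85 in WT cells and 4.31, 4.24, 4.63 and 3.79 in KEAP1-KO cells. WT tumors read 8.99, 8.67, 8.76 and 8.82 and KEAP1-KO tumors 8.93, 8.35, 8.87 and 8.78. KEAP1-KO was above WT in all cell libraries, and the tumor groups overlapped. The difference was -1.95 ± 0.30 (SE, limma adjusted p = 0.00084). Esam (-1.75), Vwf (-1.58) and Pecam1 (-1.47) also rose in cells only. The limit given above for genes far higher in tumors applies to Cdh5. Flt1, a VEGF receptor (retained-intron transcript), fell in cells from a mean of 6.80 to 5.35, with tumor means of 8.33 and 8.58, a difference of 1.69 ± 0.17 (SE, limma adjusted p = 2.8e-05). Of the 25 rows 15 were not detected in cells.

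Other genes fell in KEAP1-KO cells and not, or less, in KEAP1-KO tumors. Aqp1, a water channel (gene row), dropped from 9.04, 8.91, 8.95 and 8.80 in WT cells to 6.24, 6.32, 6.13 and 6.43 in KEAP1-KO cells. WT tumors were at 8.42, 8.74, 8.47 and 8.33 and KEAP1-KO tumors at 8.74, 8.49, 8.57 and 8.98, and these overlapped. The tumor effect was 0.21 ± 0.11, the cell effect -2.65 ± 0.11 and the difference 2.85 ± 0.16 (SE, limma adjusted p = 1.9e-07).

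Arhgdib, a gene abundantly expressed in blood cells (protein-coding transcript), fell from 7.54, 7.46, 7.08 and 7.48 to 4.50, 4.54, 4.32 and 4.72 in cells. On the log2 scale it fell much less in tumors, from 8.85, 8.92, 8.83 and 8.58 to 8.39, 8.50, 8.29 and 8.46. Tumors lay above cells in both genotypes, so a like loss of counts is a smaller log2 step there. The part of host cells in this was not tested. The genotypes did not overlap in either setting. The difference was 2.49 ± 0.16 (SE, limma adjusted p = 6.5e-07). The actin bundler Pls1 (gene row, -0.73 in tumors and -3.09 in cells), the transcription cofactor Eya2 (processed transcript, -2.18 and -4.70) and the collagen Col8a1 (retained-intron transcript, -1.04 and -2.55) fell in both settings and more in cells. Sparc, a matrix glycoprotein (retained-intron transcript), fell in cells only (-1.84; -0.33 in tumors). In the fibroblast and pericyte list, 4 of 24 were lower and Sparc alone was higher. Col6a3 (-1.77 in tumors, 1.34 in cells) and Dpt (-1.48, 1.01) were called in opposite directions, and summed levels of the list were 8637 to 20445 in WT tumors and 4261 to 8228 in KEAP1-KO tumors. The matrix metalloprotease Mmp13 fell in tumors only (-3.14), and Mmp14 (nonsense-mediated decay class) fell by 0.57 in tumors and rose by 0.67 in cells.

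**Figure D5:**
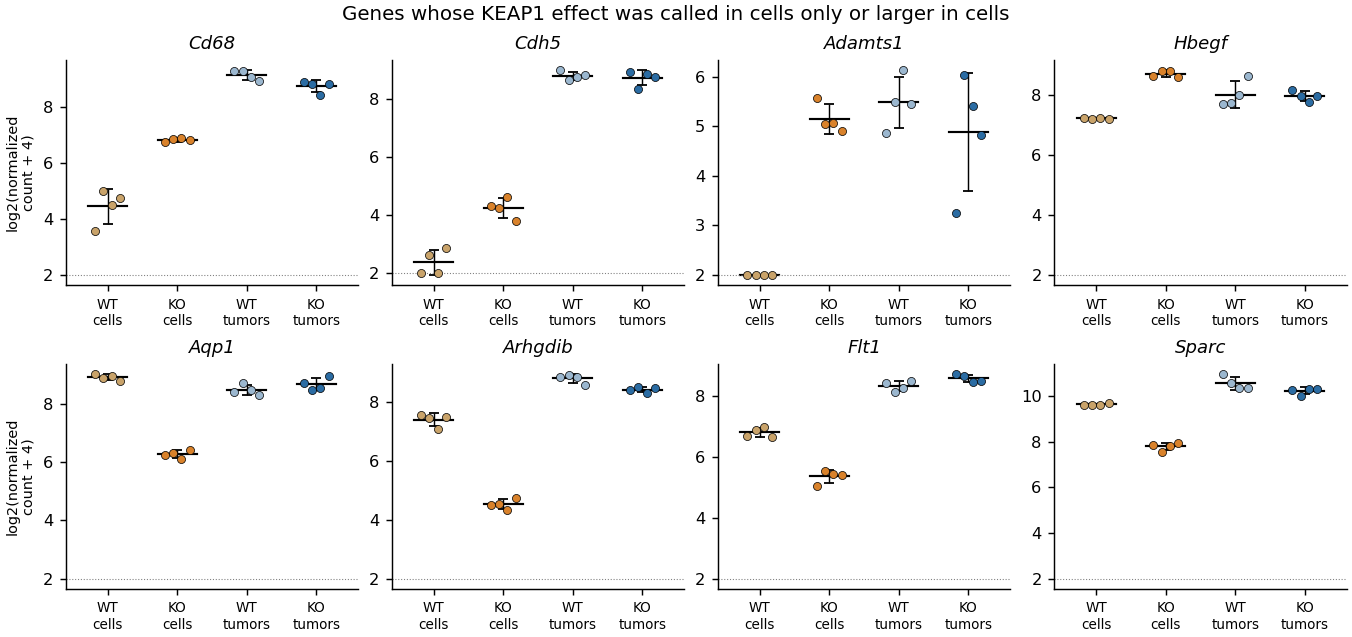
Level of 8 genes in each library on the y axis, log2(normalized count + 4), by group on the x axis, with the mean and SD (n = 4) and a dotted line at the floor of 2. Cd68, Cdh5, Adamts1 and Hbegf rise and Aqp1, Arhgdib, Flt1 and Sparc fall from WT to KEAP1-KO cells, and the tumor means of each gene differ by less than its cell means.

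The amino acid response differed as well. ATF4 induces genes of serine synthesis, amino acid import and one-carbon metabolism, and NRF2 is known to feed into it. Of 25 kept genes of this list, 9 were higher and none lower (median 0.40). In cells 13 of the 25 fell and 4 rose with KEAP1 loss (median -0.35), and in tumors 7 fell and 3 rose (median 0.04). The median level over the list was 9.55, 9.38, 9.51 and 9.46 in WT cells and 8.63, 8.89, 8.70 and 9.01 in KEAP1-KO cells, while WT tumors at 7.98, 7.72, 7.65 and 7.70 overlapped KEAP1-KO tumors at 7.96, 8.73, 8.18 and 8.73.

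Aldh1l2, the mitochondrial enzyme that oxidises 10-formyltetrahydrofolate (processed transcript), stood at 11.16, 11.10, 11.14 and 11.06 in WT cells and 9.72, 9.65, 9.69 and 9.69 in KEAP1-KO cells. The tumors were lower than both, at 9.02, 8.38, 8.49 and 8.95 for WT and 8.69, 9.08, 8.08 and 9.19 for KEAP1-KO, with overlap. The difference was 1.48 ± 0.27 (SE, limma adjusted p = 0.0037). Atf5 (gene row) also fell in cells only (-0.92; difference 1.21). Pck2, mitochondrial PEP carboxykinase (-1.92 in cells, -0.68 in tumors), the arginine transporter Slc7a3 (-1.86, -0.62) and Psat1 of serine synthesis (-0.66, -0.22), all retained-intron transcripts, fell in both and more in cells. The transporters Slc1a4 (1.5 in tumors, 0.58 in cells) and Slc6a9 (1.51, 0.44) rose in both and more in tumors. Asns, asparagine synthetase (processed transcript), rose in tumors only (0.40), with a cell effect of -0.21.

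Among the highest differences by the naming rule were genes of no list. Trp53inp1, a p53-induced regulator of autophagy and cell death (processed transcript), had 2, 2, 5.01 and 2 in WT tumors and 6.78, 7.20, 5.35 and 6.95 in KEAP1-KO tumors. In WT cells it was 2, 2, 3.99 and 2, and KEAP1-KO cells stood at the floor of 2 in all 4 libraries. Each WT group had 3 libraries at the floor and 1 well above it, and the difference was 4.31 ± 0.91 (SE, limma adjusted p = 0.0096). This row too passed the filter only because of the KEAP1-KO tumors, which set its direction. Sprr1a, a small proline-rich protein of the cornified envelope (gene row), read 4.05, 3.65, 3.10 and 3.99 in WT tumors and 6.92, 7, 5.81 and 7.37 in KEAP1-KO tumors. Cells overlapped at 4.23, 3.78, 3.06 and 3.52 for WT and 3.51, 4.17, 3.94 and 4.12 for KEAP1-KO. The difference was 2.79 ± 0.47 (SE, limma adjusted p = 0.0018).

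Rn18s, the 18S ribosomal RNA (gene row), had the highest difference under the naming rule and opposite directions. WT cells read 14.04, 13.52, 13.87 and 13.26 and KEAP1-KO cells 9.82, 11.67, 11.43 and 11.69. WT tumors read 9.82, 10.89, 10.84 and 10.67 and KEAP1-KO tumors 12.92, 13, 12.12 and 11.86. KEAP1-KO lay below WT in cells and above it in tumors without overlap, and KEAP1-KO cell 1 was the lowest cell library. The difference was 4.44 ± 0.54 (SE, limma adjusted p = 0.00012). Libraries were depleted of ribosomal RNA before sequencing, so this row counts what remained after depletion, and its part in the other differences was not tested. When all values were rescaled without the 20 highest rows, 1417 rows with a symbol were called. With the KEAP1-KO tumors of Experiment B in place of those of Experiment A, the call of Rn18s was lost (limma adjusted p = 0.089), as were those of Trp53inp1 (limma adjusted p = 0.27) and Sprr1a (limma adjusted p = 0.11).

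In lists of general cell functions the counts moved with the fit. Over all rows with a symbol 8.73% were called (6.72% lower, 2.01% higher). None of 38 proteasome and heat shock rows was called by limma for tumors minus cells (7 at an unadjusted p under 0.05, 2 called without WT tumor 2 and 1 without KEAP1-KO tumor 3, and 3, the heat shock genes Hspa1a, Hspa1b and Hsp90aa1, called lower with the KEAP1-KO tumors of Experiment B), although 19 rose with KEAP1 loss in tumors and 19 in cells. Of 33 proliferation rows 1 was called (Ccne1, -0.74), and 5 were called lower without KEAP1-KO tumor 3 (Mcm5, Rrm2, Bub1, Mcm2 and Ccne1). Of 32 glycolysis and hypoxia rows 3 were called (Adm, -2.11, Slc2a3, -1.86, and Aldoc, 1.2), and 1 without WT tumor 3 or without KEAP1-KO cell 3. Only the call of Adm held when KEAP1-KO tumors of Experiment B were used. Of 13 mitochondrially encoded genes 2 were called (mt-Co2, -1.19, and mt-Nd4, 0.38), mt-Co2 in 4 of the 16 fits without 1 library.

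Of 29 cholesterol and fatty acid synthesis rows 2 were called, both higher (Hmgcs1, 0.53, and Fads1, 1.55), beside 2.01% of all rows with a symbol. At an unadjusted p under 0.05, 10 were higher and none lower, with a list median of 0.35. Leaving out any 1 library gave 0 or 1 call. With the KEAP1-KO tumors of Experiment B in place of those of Experiment A, 9 were called, all higher (Fads2, Hmgcs1, Fdps, Idi1, Cyp51, Mvd, Stard4, Insig1 and Nsdhl).

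Experiment B allowed the tumor side of these differences to be examined in libraries that the subtraction did not use. There DKO tumors, which lack NRF2 in addition to KEAP1, were compared with KEAP1-KO tumors grown in the same mice. Over all symbol rows tested in Experiment B, DKO was called higher in 7.02% and lower in 7%. Of the 791 rows called for tumors minus cells with a decrease from WT to KEAP1-KO tumors, 746 were tested in Experiment B, and 388 (52%) were higher in DKO than in KEAP1-KO tumors, while 8 were lower (median 0.85). Of the 205 that were higher in KEAP1-KO tumors, 198 were tested, and 92 (46.5%) were lower and 10 higher in DKO tumors (median -0.35). The filter on low counts was applied to Experiment B by itself. A row near the floor in KEAP1-KO tumors could pass it only through DKO tumors, which sets its direction there, and the reverse also holds. How many rows passed in this way was not counted, so these shares are partly set by the filter to an unknown extent.

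By gene group, Nqo1 changed by -6.30 ± 0.21 (SE, limma adjusted p = 4.4e-07) from KEAP1-KO to DKO tumors, Gstm1 by -5.71 ± 0.17 (SE, limma adjusted p = 1.9e-07) and G6pdx by -2.39 ± 0.09 (SE, limma adjusted p = 1.1e-06). The interferon-stimulated list was higher in DKO tumors for 43 of 51 and lower for none, the GTPase list for 13 of 15, and the pan-leukocyte list for 19 of 20. Shares were smaller in other lists: 17 of 30 for macrophages (1 lower), 9 of 14 for complement and 5 of 9 for MHC class II. They were 9 of 21 for MHC class I, 9 of 23 for chemokines (1 lower) and 4 of 10 for T and NK cells. For neutrophils 4 of 14, for dendritic cells 2 of 8 (1 lower) and for checkpoint genes 2 of 16 were higher. These totals are the rows kept in the main fit, and the limit given above for rows near the floor in Experiment B applies to these counts. Gbp7 changed by 1.40 ± 0.22 (SE, limma adjusted p = 0.0039), Ifit1 by 4.09 ± 0.41 (SE, limma adjusted p = 0.00036), Cxcl10 by 3.55 ± 0.38 (SE, limma adjusted p = 0.00049) and Ptprc by 1.02 ± 0.14 (SE, limma adjusted p = 0.0022). Hmox1, which KEAP1 loss lowered in tumors A, gave -0.24 ± 0.21 (SE, limma adjusted p = 0.57), and Cd274 gave 0.70 ± 0.23 (SE, limma adjusted p = 0.094), neither of them called. Of the 200 rows that changed in cells only with a negative difference, 181 were tested in Experiment B, where 23 were higher and 23 lower. Aqp1 changed by -0.22 ± 0.11 (SE, limma adjusted p = 0.29) and Cdh5 by -0.27 ± 0.14 (SE, limma adjusted p = 0.29), and neither was called there.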

How the data were processed

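RNA-seq of ribosomal RNA-depleted, directional libraries was quantified by the authors with Salmon against GENCODE mouse transcripts. They ran differential expression in iDEP, and the step that normalized the deposited values is not stated. The deposited table holds log2 values for 43143 rows (9122 genes and 34021 single transcripts) in 28 libraries, and these values are log2(normalized count + 4): all low values gave whole reads within 0.02. The methods name TPM, which the values are not. A row was kept when 4 or more of the 16 libraries held 5 or more normalized counts (33851 rows, 15323 with a symbol). limma (version 3.58.1, R 4.3.3; group means, empirical Bayes with trend) tested the difference of differences and both simple effects, with Benjamini-Hochberg adjustment over all kept rows. When the fit was tested on simulated data, false calls exceeded the nominal share and smaller changes were missed more often than larger ones. Libraries held 4487181 to 7524322 reads, and depth limits rows near the floor. A row was not detected in cells when it had under 5 normalized counts in all 8 cell libraries. Experiment B was filtered on low counts and fitted alone. Promoter motifs were searched in RefSeq promoters of GRCm38.p6, matched by symbol. No genome of the authors' build was used, so rows carry no coordinates.

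The members, gene lists and tests were chosen with earlier results of these data known. Genes were named when they were among the 12 highest or 12 lowest differences called in the whole fit and in all 16 fits without 1 library (clone names left out), among up to 4 highest and 4 lowest called members of a list, or among the 4 largest of a pattern. Keap1, Nfe2l2, Nqo1, Il7, Slpi, Serpinb9e and Ptprc were always named, and further list members were picked as examples after their values were seen. The labels' extraction text names livers of male mice, whereas titles and methods describe tumors and cells.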

Additional observations from a re-analysis of the deposited data

Results flagged for a closer look

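In 12 of the 108 groups of 4 libraries behind the 27 genes printed library by library (11.1%), 1 library stood apart from the other 3 by Dixon's criterion, which chance meets in about 1 in 20 groups. In WT cells these were Gstm2 in library 1 at 7.33, Gbp3 in library 2 at 2.34, Ptprc in library 3 at 2.35, Arhgdib in library 3 at 7.08, Abcb1a in library 4 at 2.62 and Trp53inp1 in library 3 at 3.99. In KEAP1-KO cells they were Gstm2 in library 1 at 9.61, Ifit1 in library 2 at 2.29, Trim30a in library 1 at 5.73, Abcb1a in library 1 at 3.39 and Rn18s in library 1 at 9.82. In WT tumors it was Trp53inp1 in library 3 at 5.01. For Gbp3, Ifit1, Ptprc, Abcb1a and Trp53inp1 the other 3 libraries of the group were all at the floor. Any read in the remaining library then meets the criterion, so the 1 in 20 does not apply to these groups.

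The effect of KEAP1 loss differed between tumors and cells by the test of the difference itself in 1337 rows with a symbol, and 125 of them were called in opposite directions in the 2 settings.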

How the results depend on the processing

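No call of a named gene, list or count changed direction under the alternatives run. The 1337 calls (308 higher, 1029 lower) became 778 (141 higher, 637 lower) at an adjusted p under 0.01. The lower calls became 661 with a mean of at least 25 normalized counts. That filter took MHC class I from 11 to 7, MHC class II from 8 to 5 and cytokines and growth factors from 10 to 5. The higher calls became 205 without the trend, 509 with rows summed by gene and 128 with a difference of at least 1 required. With only gene rows, calls fell from 228 to 101 for list members and from 245 to 92 for named genes. Fewer rows enter that fit and the mean filter. For the other settings the cause was not tested.

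Same-numbered libraries did not deviate together (correlations of -0.03 to 0.03, none best with its own number), and although WT and KEAP1-KO tumors grew on both flanks of the same mice, no source used here says that a number marks a mouse, so the numbers were not taken to pair them. A replicate block gave 836 calls (159 higher, 677 lower). With it 40 of 250 named results lost their call, and called rows went from 9 to 4 for T and NK cells, from 6 to 2 for iron and heme, from 3 to 0 for glycolysis and hypoxia and from 2 to 0 for mitochondrially encoded genes.

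Without 1 library, calls ranged from 988 to 1580 (232 to 352 higher, 747 to 1228 lower), opposite directions from 95 to 148, called list members from 184 to 244, named genes from 198 to 238 and called rows that Experiment B called in the direction opposite to the tumor effect from 370 to 457 (480 with all). Rows that passed the filter through WT tumors only were not tested in the fits without 1 WT tumor. Calls close to the threshold were lost in some of these 16 fits: Adm and Hmgcs1 were called in 2, Fth1 in 3, Pgd and mt-Co2 in 4, Ccne1 in 5, Fads1 in 6, Aox1 in 7, Prdx6 in 8, Blvrb in 11 and Aldoc in 12. Fits with tumors and cells apart, each with its own spread, were added after seeing the data and gave 1374 calls. With the KEAP1-KO tumors of Experiment B in place of those of A, 47 of 250 named results lost their call.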

Other observations

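Iron and heme genes were split, with 2 of 18 kept higher and 4 lower for tumors minus cells. Of 15 aldehyde dehydrogenase and aldo-keto reductase rows, 3 were higher, and of 13 keratin, claudin and desmosome rows 1 was lower, Krt80, at -3.46. Of 35 matrix and matrix protease rows, 4 were lower (11.4%) and 1 higher (2.86%). Over all rows with a symbol 6.72% were lower and 2.01% higher, and the keratin, claudin and desmosome list (7.69% lower) was near this.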
